A study of Caenorhabditis elegans with 4 samples.

Results

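PAX-1 is a transcription factor of the nematode Caenorhabditis elegans that carries a paired domain, the DNA-binding domain that names the paired-box family. Factors of this family act in patterning and organ formation in animal embryos. The account here concerns the places on chromosome V that both ChIP libraries of PAX-1 listed. A region was taken when it was listed in ChIP replicate 1 and overlapped a region listed in ChIP replicate 2 by at least 1 bp. This gave 1546 reproducible regions on V, of 10198 on the 6 nuclear chromosomes, or 15.2%. Chromosome V makes up 20.9% of the listed nuclear extent.

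The method was ChIP-seq: chromatin is fixed, the DNA held by 1 protein is pulled down with an antibody, and that DNA is sequenced. There were 4 samples, ChIP replicates 1 and 2 and their Input samples of total chromatin DNA, all from strain OP117. Its unc119(ed3) background carries the transgene wgIs117, in which pax-1 is joined to TY1, EGFP and FLAG tags and which also holds an unc119 copy. The transgene was brought in by bombardment, and the ChIP and Input samples alike come from animals with these added pax-1 copies. All 4 samples were embryos of a population of both males and hermaphrodites, grown at 20 °C and fixed in 2% formaldehyde. The pull-down used an antibody against GFP. The Input samples have no region list used here, so no region was compared with a background list.

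Each ChIP replicate has 1 list of regions, with 30000 regions in replicate 1 and 19190 in replicate 2. A combined list of both holds 917. Positions are on WormBase WS220. Read depth is unknown, since the lists hold no read counts. The lists give each region a score of unstated scale, which stops at a ceiling, and a number, of which the low ones carry the high scores. A region with a low number is called a high-ranked one below, and numbers are compared within a list only. Intervals for shares are 95% Wilson intervals and cover the counting of regions only. The members of 1 list are not replicates of each other, and neighbouring regions are not independent.

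C. elegans autosomes have a gene-dense centre with little recombination, flanked by arms with more repeats and more recombination. Chromosome V is the longest and is known for large families of chemoreceptor genes, many of them in arrays on its arms. The pax-1 gene itself is assigned to V in the RefSeq gene table of assembly WBcel235. Positions in that table belong to another build, so genes at the regions, and the pax-1 locus, were not analysed here. No genome sequence of WS220 was used, and no region sequence is shown.

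A smaller share of the listed regions was reproducible on V than on the autosomes set beside it. Of the 5114 replicate 1 regions on V, 30.2% (interval 29.0% to 31.5%) were reproducible, against 34.0% over all nuclear chromosomes. The share was 34.8% on II (interval 33.4% to 36.2%), 37.2% on III (35.8% to 38.6%) and 34.9% on IV (33.7% to 36.2%). The interval of V overlapped none of these. On I and X, which were not among the chromosomes set beside V, the share was 36.5% and 31.0%. The interval of X, 29.8% to 32.3%, overlapped that of V. Counted from the other library, 48.4% of the 3204 replicate 2 regions on V overlapped replicate 1 (interval 46.7% to 50.1%). The corresponding values were 53.9% on II, 55.8% on III and 53.3% on IV, so V was lowest of these 4 in both libraries. Overlap is what chose the regions, and no test was attached to it.

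Both libraries also listed fewer regions per length on V. Replicate 1 listed 244 regions per Mb there, against 286 on II, 341 on III and 306 on IV. Replicate 2 listed 153 per Mb on V, against 181, 226 and 199. Replicate 2 regions covered 7.45% of V, 8.78% of II, 10.9% of III and 9.64% of IV. A list that covers less ground meets fewer regions of another list by position alone, and the part of this in the lower share on V was not tested.

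The reproducible regions numbered 73.9 per Mb on V, 99.5 on II, 126.9 on III and 106.9 on IV. Chromosome V holds the most protein-coding genes of the 4 in the RefSeq table, 4995 against 3446 on II, 2642 on III and 3281 on IV. Per 100 protein-coding genes there were 31.0 reproducible regions on V, 44.1 on II, 66.2 on III and 57.0 on IV. V was thus lowest by length and by gene number. When each chromosome was divided into 20 equal parts, the density on V was below that of the matching part of III in 20 of 20 parts, of IV in 20 and of II in 17.

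The density was far from even along V. The part with the fewest reproducible regions was number 17 from the left, at 16738022 to 17784147, with 22 regions. Its neighbour, part 16, held 43. The highest was the last part, at 19876401 to 20922527, with 143 regions, and the median part held 78.5. The highest part thus held 6.50 times the lowest. The same ratio was 5.65 on II, 2.33 on III and 1.83 on IV. On II the lowest part held 20 regions, so a sparse part of this kind was present on II as well as on V.

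**Figure D1:**
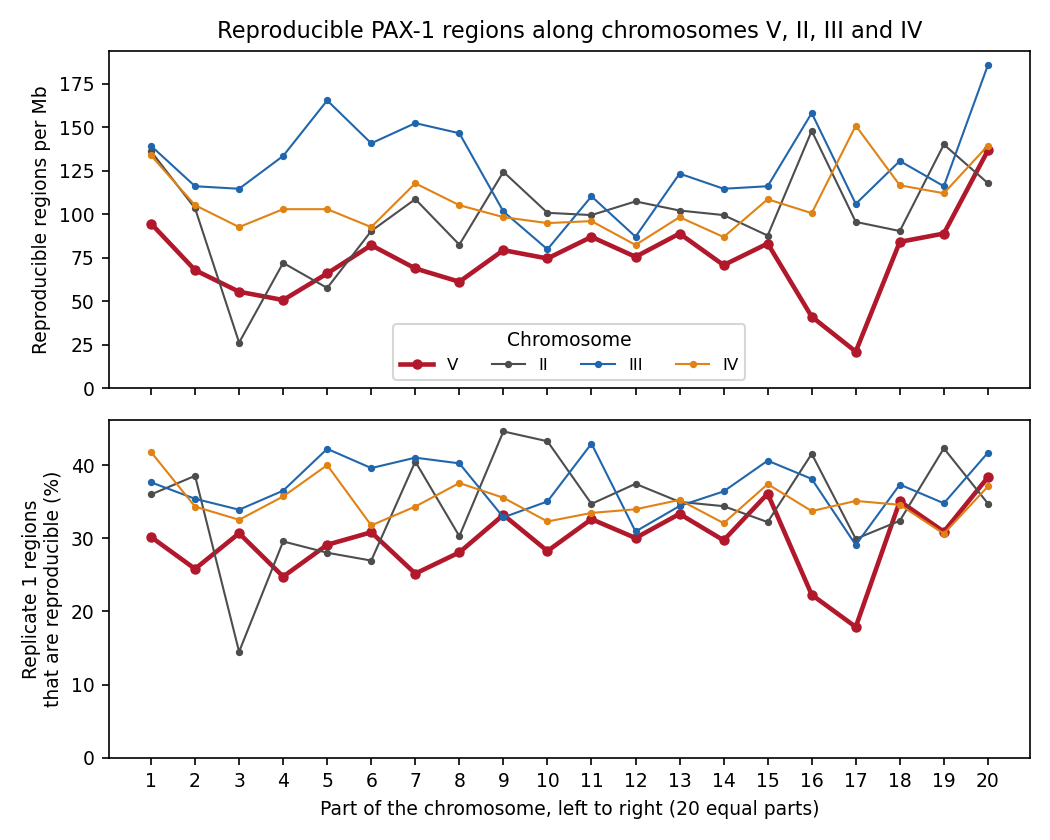
Reproducible regions per Mb (upper panel) and the percentage of replicate 1 regions that were reproducible (lower panel) in 20 equal parts of chromosomes V, II, III and IV, from left to right. V (thick red line) falls to 21.0 per Mb in part 17 and reaches 136.7 per Mb in part 20; II falls to 26.2 per Mb in its part 3.

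Parts 16 and 17 together, 2.09 Mb from 15691896 to 17784147, were picked after their values were seen. They held 65 reproducible regions, or 31.1 per Mb, and 2 of the 120 combined regions of V. Replicate 1 listed 316 regions there, or 151 per Mb, against 255 per Mb on the rest of V. Of these 316, 20.6% were reproducible (interval 16.5% to 25.4%). Without the 2 parts, V had 78.6 reproducible regions per Mb and 30.9% of its replicate 1 regions were reproducible, so both values remained below those of II, III and IV. The last part differed in the other direction. There 38.3% of 373 replicate 1 regions were reproducible (interval 33.5% to 43.4%), and 16 combined regions lay in it.

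Position by arm and centre was then compared, with each of the 3 a stretch of equal length, 6.97 Mb on V. The left arm held 485 of the 1546 regions (31.4%, interval 29.1% to 33.7%), the centre 541 (35.0%, interval 32.7% to 37.4%) and the right arm 520 (33.6%, interval 31.3% to 36.0%). In regions per Mb this was 69.5, 77.6 and 74.6. Replicate 1 as a whole listed 1696, 1773 and 1645 regions in the 3 stretches, and replicate 2 listed 1037, 1112 and 1055. The reproducible share of replicate 1 regions was 28.6% in the left arm, 30.5% in the centre and 31.6% in the right arm, with overlapping intervals. The right arm combined the sparsest and the densest part of the chromosome, and its average shows neither.

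The centre of V held a larger share of the reproducible regions than the centres of III and IV. On III the centre held 28.1%, so V was higher by 6.92 percentage points (interval 3.74 to 10.1, Fisher's exact test, two-sided, Benjamini-Hochberg adjusted p = 0.00013). On IV the centre held 29.7%, and V was higher by 5.31 points (interval 2.16 to 8.47, Fisher's exact test, adjusted p = 0.0031). On II it held 34.9%, and the difference of 0.13 points did not pass the test (interval -3.25 to 3.50, Fisher's exact test, adjusted p = 1). These tests, and those below, take regions as independent, which neighbours are not, so their p-values may be too small. With regions within 5000 bp of each other counted once, V was higher by 3.76 points than III and by 3.22 points than IV, with adjusted p = 0.24 and 0.26 in Fisher's exact test, so neither call held. The same order was present among all replicate 1 regions, reproducible or not, where the centre held 34.7% on V, 29.2% on III and 30.3% on IV, with V higher by 5.42 and 4.33 points. The difference is thus not particular to the reproducible regions.

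**Figure D2:**
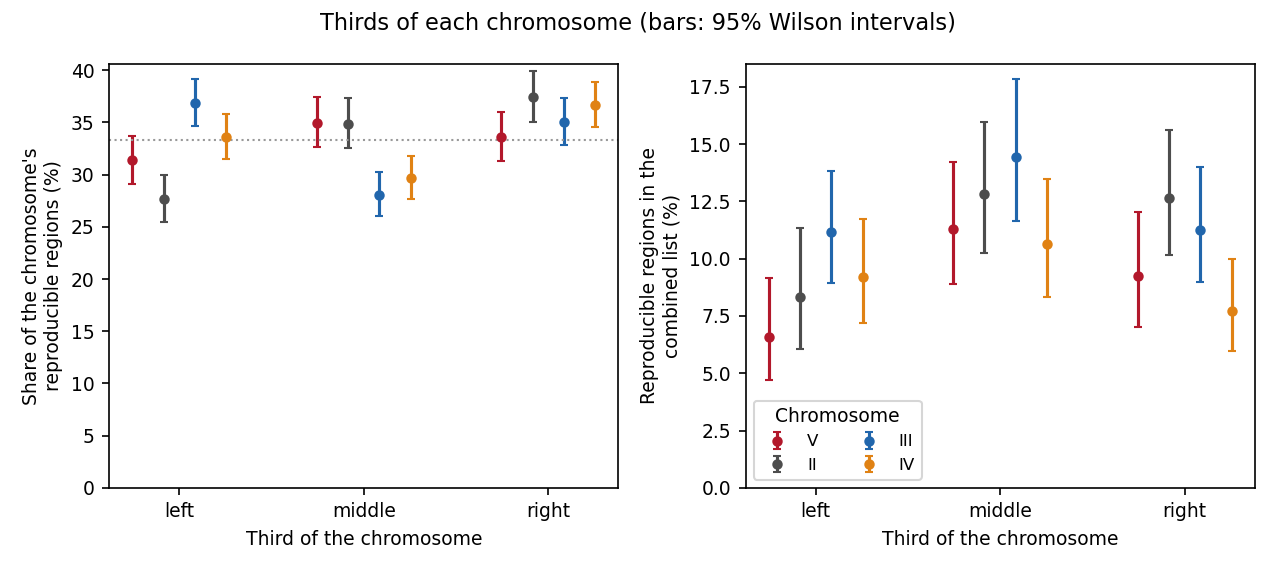
Share of each chromosome's reproducible regions (left panel) and percentage of reproducible regions found in the combined list (right panel) in the left, middle and right 1 of 3 equal stretches of V, II, III and IV; points are shares, bars 95% Wilson intervals, and the dotted line marks an even share. The middle of V holds 35.0% of its regions and that of III 28.1%; in the combined list the left arm of V is lowest on V at 6.60%.

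The regions of V lay farther apart. The median distance between neighbouring midpoints was 6095 bp on V (95% interval of the median by order statistics, 5427 to 6762 bp; quartiles 1699 and 18000 bp). It was 4832 bp on II, 4014 bp on III and 4592 bp on IV, where the highest upper bound was 5288 bp. The upper quartiles on those were 12874, 10181 and 11871 bp. On V, 261 of 1545 distances were under 1000 bp, 700 were between 1000 and 10000 bp and 584 were longer. Distances under 1000 bp made up 16.9% on V, 21.9% on II, 21.8% on III and 20.8% on IV. Within V the median was 7274 bp in the left arm, 5915 bp in the centre and 4991 bp in the right arm. Some near neighbours are a single place listed more than once: 346 of the 1546 regions overlapped another, and the 1546 regions formed 1368 separate sites.

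**Figure D3:**
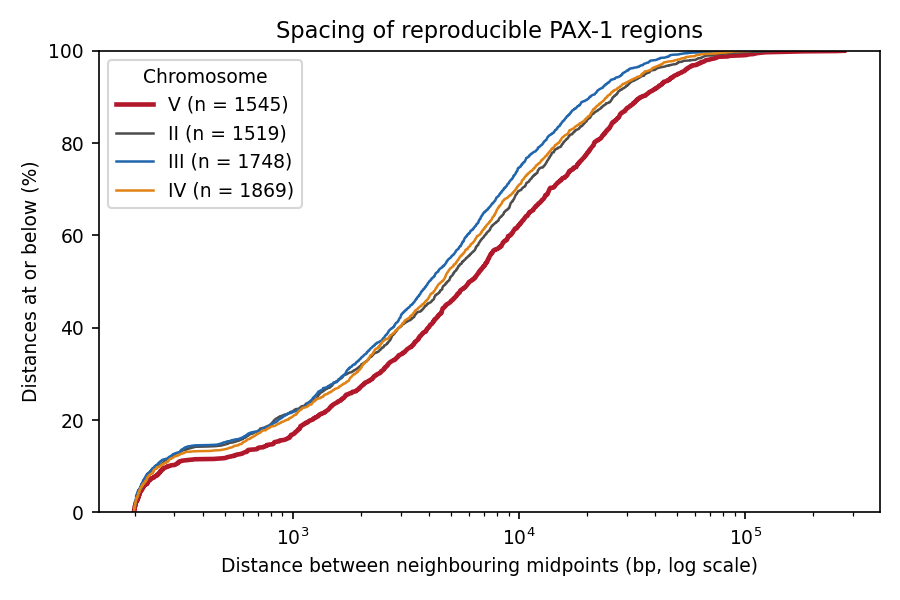
Cumulative percentage of distances between neighbouring midpoints of reproducible regions (bp, log scale) on V, II, III and IV. The curve of V (thick red line) lies to the right of the other 3 at all 3 quartiles, with a median of 6095 bp and a longest distance of 274414 bp.

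Long stretches without any reproducible region were more numerous on V. There were 78 stretches of at least 50 kb, which together spanned 6.08 Mb or 29.1% of V. Chromosome II had 40 (19.0% of its extent), III had 15 (6.81%) and IV had 36 (13.8%). Stretches of at least 100 kb, a length chosen after the values were seen, numbered 15 on V, 4 on II, 0 on III and 2 on IV. On V they were not confined to an arm: of the 78, 28 lay in the left arm, 24 in the centre and 26 in the right arm. Regions seen in 1 library only were present inside them, with 855 from replicate 1 and 413 from replicate 2. That is 141 and 67.9 per Mb, against 287 and 188 per Mb on the rest of V. The 78 stretches were defined by the absence of reproducible regions, so a lower count in them is in part by construction. They held 1 combined region.

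The longest stretch, 274 kb at 2326541 to 2600544 in the left arm, held 9 replicate 1 and 6 replicate 2 regions. The best of those 9 was number 2217. The next 4 in length all lay in the right arm, within the 2 sparse parts described above. The stretch at 17396071 to 17648856 measured 253 kb and held 20 regions of replicate 1 and 9 of replicate 2. The stretch at 17082255 to 17262950 measured 181 kb and held 13 and 6. The stretch at 16795242 to 16959163 measured 164 kb and held 18 and 16. The stretch at 16095082 to 16236431 measured 141 kb and held 20 and 7. None of the 5 held a combined region. The longest stretch was 141 kb on II, 83.0 kb on III and 105 kb on IV. That order depends on the depth of the list: with only the upper 50% of replicate 1, the longest on II was 390 kb and that on V 317 kb.

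One of the highest-ranked regions of V bordered such a stretch. The region at 16965756 to 16965862, number 21 in replicate 1 and number 910 in replicate 2, began 6182 bases after the last reproducible region and was followed by 115716 bases with none. The distance before it, counted from end to start, was close to the median spacing of V, which is between midpoints. The reproducible region before it directly followed the empty stretch at 16795242 to 16959163, so the pair lay between long stretches on both sides. The region at 16965756 to 16965862 was number 52 in the combined list. The opposite arrangement was seen in the 10 kb windows with the most regions. The windows beginning at 10039824, 15075988 and 18592520 each held 8 reproducible regions, which formed 4, 6 and 7 separate sites. They held 2, 1 and 0 regions that overlapped the combined list. The best replicate 1 numbers in them were 376, 656 and 4918, and the highest-ranked region of the third window was thus far below the top of the list in rank.

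The 10 highest-ranked reproducible regions of V in replicate 1 spread over the whole chromosome, with 5 in the centre, 4 in the right arm and 1 in the left arm. All 10 carried the highest score of replicate 1, 3.35, and all 10 overlapped the combined list, at numbers 6 to 89. In all, 118 reproducible regions of V carried that score, so the order among them, and these 10, rests on the region numbers alone. The region spanning 11083643 to 11083796 was number 14 in replicate 1 and 18 in replicate 2. The region spanning 10897285 to 10897409 was number 23 and 12. These 2 lay in the centre and were high in both libraries. The region spanning 18967643 to 18968052 in the right arm was number 95 and 25. The region spanning 9344121 to 9344530 was number 78 and 92, and that at 14685645 to 14686054 was number 46 and 65.

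In replicate 2 the other 5 had higher numbers, from 102 to 977. The region spanning 6100743 to 6100848, the highest of the left arm, was number 18 in replicate 1 and 102 in replicate 2. Its replicate 2 score was the highest of that list, as for the 5 regions above. Its place after them in replicate 2 thus rests on the number alone. The region spanning 11335748 to 11336157 was number 22 and 152. The region spanning 10466536 to 10466945 was number 53 in replicate 1 and 774 in replicate 2. The region spanning 20062644 to 20062848 was number 37 and 977, and that at 16965756 to 16965862, next to the empty stretch, was 21 and 910. Midpoints of the paired regions differed by 9 to 133 bp over the 10. The next in rank in the left arm, at 4826972 to 4827381 and 2264480 to 2264889, were number 128 and 138 in replicate 1 but 1366 and 3315 in replicate 2.

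Width separated only a handful of regions from the rest. Of the 1546, 1541 were 410 bp wide, the usual width of replicate 1. The other 5 were narrower, down to 106 bp, all had numbers of 37 or lower, and all overlapped the combined list. The narrow regions are why 5 of the 10 highest-ranked ones did not pass an overlap of at least 50% of both regions, since their replicate 2 partners were 520 bp wide.

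Reproducible regions of V were spread over the whole range of ranks. In the upper 50% of the replicate 1 list lay 898 of the 1546. The median number was 12209 in replicate 1 (quartiles 5079 and 20577) and 7546 for the best partner in replicate 2 (quartiles 3195 and 13123). Replicate 1 regions of V without a partner had a median number of 17283. On II, III and IV the medians were 10691, 10253 and 11549 in replicate 1 and 7296, 6582 and 7232 in replicate 2. Within the first 1000 numbers of replicate 1 were 109 regions of V (7.05%), 132 of II (8.68%), 154 of III (8.81%) and 129 of IV (6.90%). Across the 1546 regions the Spearman correlation of the numbers in the libraries was 0.279, and it was 0.337 on II, 0.285 on III and 0.222 on IV. The points share 2 libraries and lists that may have been cut, and include neighbours that overlap.

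The overlap itself varied in size. The best partner, here and above, is the overlapping replicate 2 region with the lowest number, which need not have the largest overlap. The median overlap with the best partner was 324.5 bp (quartiles 192 and 410 bp), and 399 regions (25.8%) lay wholly inside their partner. A further 179 (11.6%) overlapped by under 100 bp. Near the edge of the rule, 79 reproducible regions overlapped by 50 bp or less, and 62 replicate 1 regions that were not taken lay under 50 bp from a replicate 2 region. The region at 10718470 to 10718879, number 383, was taken on 2 bp, while that at 13374754 to 13375163, number 10088, directly adjoined a replicate 2 region and was not. Midpoints differed by a median of 138.5 bp on V, 144 bp on II, 149 bp on III and 155 bp on IV. Of the 1546, 249 overlapped more than 1 replicate 2 region.

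Reproducibility was also set side by side at like rank. Of the replicate 1 regions numbered 1 to 500, 84.8% on V had a partner (67 of 79, interval 75.3% to 91.1%), against 89.2% on II, 89.0% on III and 98.7% on IV, and the intervals of V and IV did not overlap. For numbers 501 to 1000 it was 79.2% on V and between 82.0% and 82.8% on the others, with overlapping intervals. For numbers 1001 to 2000 the share was 65.7% on V and between 65.5% and 68.4% on the others. For numbers 2001 to 5000 it was 41.3% on V (interval 36.8% to 45.9%), against 51.1% on II, 53.0% on III and 50.2% on IV, whose lowest bound was 46.0%. For numbers 5001 to 15000 it was 30.6% on V (interval 28.4% to 32.8%), 33.0% on II, 35.4% on III and 34.5% on IV, and the interval of V overlapped those of II and IV. For numbers 15001 to 30000 it was 23.9% on V (interval 22.3% to 25.5%) and 27.1%, 28.5% and 27.3% on II, III and IV. The interval of V overlapped that of II in this last band as well, so the band 2001 to 5000 is the only one of the 6 where V was clear of all 3. Replicate 2 also covered less of V, as given above, and its part in these differences was not tested.

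**Figure D4:**
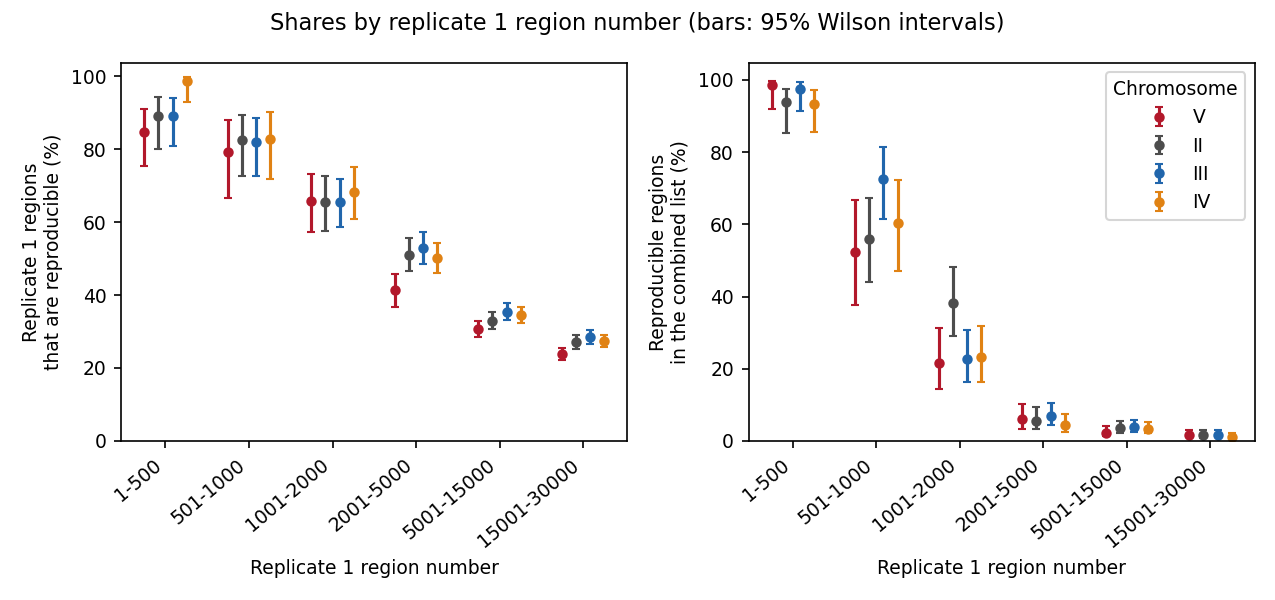
Percentage of replicate 1 regions that were reproducible (left panel) and percentage of reproducible regions found in the combined list (right panel) by replicate 1 region number on V, II, III and IV; points are shares and bars 95% Wilson intervals. Both shares fall steeply with number on each of the 4 chromosomes, and V is lowest at numbers 2001 to 5000 in the left panel, at 41.3%.

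The combined list took in few of the reproducible regions. On V, 141 of 1546 overlapped a combined region (9.12%, interval 7.78% to 10.7%), against 10.7% over all nuclear chromosomes. The share was 11.5% on II, 12.1% on III and 9.09% on IV. V was below III by 3.00 points (difference -3.00, interval -5.10 to -0.89, Fisher's exact test, adjusted p = 0.011). V was below II with a difference of -2.39 points (interval -4.56 to -0.24, Fisher's exact test, adjusted p = 0.049). The difference from IV was 0.03 points and did not pass the test (interval -1.90 to 1.99, Fisher's exact test, adjusted p = 1). The comparison with II did not pass at an overlap of 50% of both regions, with midpoints within 200 bp, in the upper 50% of replicate 1 or with overlapping regions joined (Fisher's exact tests, adjusted p from 0.060 to 0.097). With regions within 5000 bp counted once both differences were larger, at -5.54 points against II and -6.97 against III (Fisher's exact tests, adjusted p = 0.0079 and 0.00080). A group of such regions counted as in the combined list if any of its regions was. The 1546 regions of V formed 813 groups, the 1520 of II 709 and the 1749 of III 751. Groups on V thus held fewer regions on average, and the part of this in the larger differences was not tested. The comparison with III did not pass in the upper 50% of replicate 1 (Fisher's exact test, adjusted p = 0.059). The combined list derives from these same libraries, and overlap with it is not independent evidence of binding.

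Within V, the share in the combined list was 6.60% in the left arm (32 of 485, interval 4.71% to 9.17%), 11.3% in the centre (61 of 541, interval 8.88% to 14.2%) and 9.23% in the right arm (48 of 520, interval 7.03% to 12.0%). Combined regions followed the same order, with 28, 49 and 43. The left arm also held the fewest regions within the first 1000 numbers of replicate 1, at 30 against 45 and 34. The centre was likewise highest on II, III and IV, at 12.8%, 14.5% and 10.6%, but on II the right arm was nearly equal at 12.7%. On V, II, III and IV alike the interval of the centre overlapped those of both arms.

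Rank in both libraries went with presence in the combined list. That list derives from these same libraries, so the association is in part by construction. Of the 48 regions of V within the first 1000 numbers of both lists, all 48 were in the combined list (interval 92.6% to 100.0%). With replicate 1 alone within that limit it was 40 of 61 (65.6%), and with replicate 2 alone 38 of 83 (45.8%). With neither it was 15 of 1354 (1.11%). The same order was present on II, III and IV. With both within the limit, the share there was 91.5%, 96.4% and 95.2%. It was 55.7% to 73.2% with replicate 1 alone and 33.8% to 47.3% with replicate 2 alone. With neither it was 0.92% to 2.14%. The association is thus not particular to V. By replicate 1 number, the share on V was 98.5% for 1 to 500, 52.4% for 501 to 1000 and 21.6% for 1001 to 2000. On II, III and IV it was 93.9%, 97.5% and 93.4% for 1 to 500, and 56.1%, 72.6% and 60.4% for 501 to 1000. In the band 1001 to 2000 it was 38.1% on II, 22.7% on III and 23.1% on IV, and the intervals of V and II overlapped. For 2001 to 5000 it was 5.95% on V, 5.65% on II, 6.77% on III and 4.35% on IV. At like rank V was thus not the lowest in every band. The midpoints of paired regions differed by a median of 57 bp for the 141 in the combined list and 152 bp for the other 1405.

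**Figure D5:**
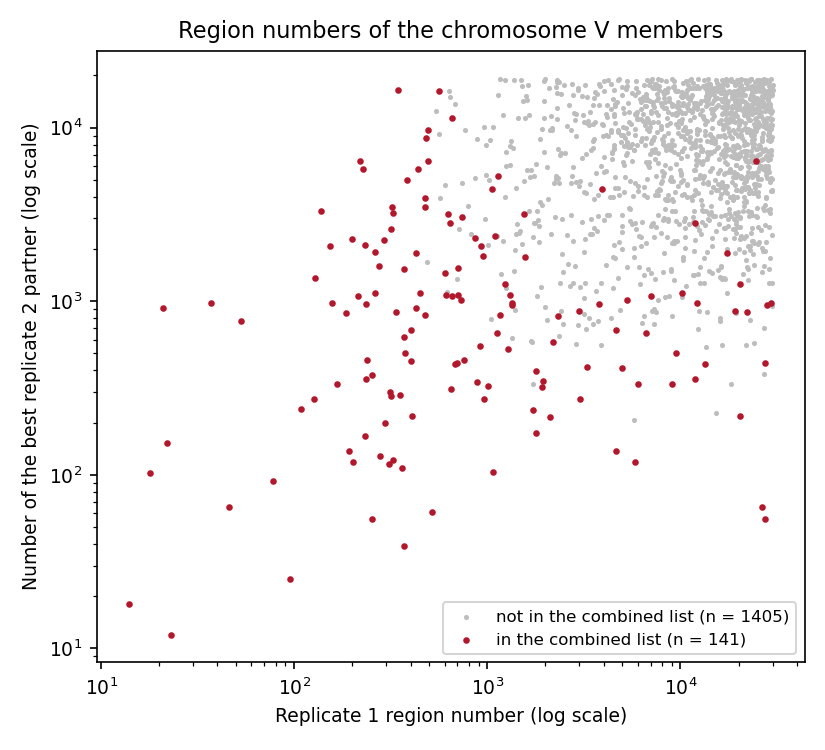
Replicate 1 region number against the number of the best replicate 2 partner for the 1546 reproducible regions of V (both axes logarithmic); red points overlap the combined list (n = 141) and grey points do not (n = 1405). Red points fill the lower left, where both numbers are low. Of the red points, 23 have replicate 1 numbers over 5000 and 11 have replicate 2 numbers over 5000.

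The 5 highest-ranked regions of V outside the combined list had partners of varied rank in replicate 2. The region spanning 11979843 to 11980252 was number 487 in replicate 1 and 1675 in replicate 2, with midpoints 306 bp apart. The region spanning 4810628 to 4811037 was number 540 and 12500, that at 19153268 to 19153677 was 565 and 9180, and that at 20760653 to 20761062 was 569 and 3952. The region spanning 4731358 to 4731767 was number 607 and 4654, although its midpoints were 5 bp apart. All 5 carried the highest score of replicate 1, and their replicate 2 scores ran from 0.0153 to 0.268, where the ceiling is 2.37.

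The reverse case was a low rank in replicate 1 with a place in the combined list. Of 23 such regions of V with numbers over 5000, 22 overlapped a combined region that a higher-ranked reproducible region also overlapped. The partners of 16 of the 23 were within the first 1000 numbers of replicate 2. The region spanning 11239395 to 11239804 was number 29281 in replicate 1 and 973 in replicate 2, that at 12951262 to 12951671 was 28024 and 956, and that at 11340172 to 11340581 was 27382 and 441. Each of these 3 overlapped the reproducible region before it, so these low-ranked regions share bases with another listed one.

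Of the 120 combined regions of V, 115 overlapped a reproducible region, and 29 of them overlapped 2. The other 5 rested on a replicate 1 region that met no replicate 2 region. The region at 104438 to 104933 was combined number 439 and number 177 in replicate 1. Those at 7196348 to 7196843 and 14695182 to 14695677 were combined numbers 618 and 916, with replicate 1 numbers 498 and 915. The region at 20424089 to 20424584 was combined number 803, with replicate 1 number 255. The region at 20068310 to 20068805 was combined number 241 and overlapped number 51 of replicate 1 and number 11364 of replicate 2, but those 2 did not overlap each other. Number 51 was the highest-ranked replicate 1 region of V that was not reproducible, and 23 such regions were within the first 1000 numbers.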

How the data were processed

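Region lists in GFF version 3 were used as the authors deposited them, 1 for each ChIP replicate and 1 combined. Per the file headers, positions are on WormBase WS220. The source column names SPP, a peak caller, and IDR, a measure of how consistently regions rank in replicates. No source used here gives the aligner, versions, thresholds, use of the Input samples or way of combining. The authors' deposited score is of unstated scale, so regions were ordered by number within a list. Whether replicate 1 was cut at 30000 is not stated, and whether replicates came from separate cultures is not either.

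Overlaps, distances and shares were computed in Python 3.11.15 (scipy 1.17.1), and the functions were tested on simulated lists. Chromosome extents run from base 1 to the last base listed in any list. Distances are between midpoints, and empty stretches run from a region's end to the next start. Mitochondrial regions (23 and 21) were left out. Fisher's exact tests were two-sided, adjusted by Benjamini-Hochberg over 6 comparisons, with a threshold of 0.05, and differences carry Newcombe intervals. Alternatives were stricter overlap, shorter lists, 1 replicate alone, another extent and neighbours counted once; joining overlapping regions was added after seeing the data.

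The regions and the comparisons were chosen with earlier results of these data known. Regions were named by rule: the 10 lowest replicate 1 numbers of V, the 3 lowest of each arm and the centre, the 5 lowest outside the combined list, the 3 highest inside it, the 5 longest empty stretches, the 3 fullest 10 kb windows and the combined regions of V without a reproducible one. The region beside the empty stretch and the sparse parts were picked after their values were seen.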

Additional observations from a re-analysis of the deposited data

How the results depend on the processing

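No paired analysis was possible because the values are shares and distances within lists, with no list of Input regions to pair. Among 100 values from other settings, covering 12 results, 61 showed no change of direction or of side of the threshold, or moved within the interval or by under 1.5 times. The share of replicate 1 regions on V that were reproducible was 20.9% at an overlap of 50% of both regions, 20.6% with midpoints within 200 bp, 37.4% in the upper 50% of replicate 1, 35.1% with lists of equal length and 48.4% counted from replicate 2. In the same order the first 4 gave median distances of 9826, 9894, 10290 and 8454 bp, and joining overlapping regions, chosen after seeing the data, gave 7531 bp. The upper 50% left 898 regions, or 42.9 per Mb, and counting regions within 5000 bp once left 38.9 per Mb. With 1 replicate alone the regions numbered 3204 to 5114, the density was 153 to 244 per Mb and the median distance 2326 to 3700 bp, since no overlap was then asked for. V minus II in the combined share was -2.95 (50% overlap), -2.79 (midpoints), -3.44 (upper 50%) and -2.32 points (joined), without passing the test, and V minus III was -3.63 points in the upper 50%. Counting neighbours once, with a group in the combined list if any of its regions was, gave -5.54 and -6.97 points, both past the threshold. With 1 replicate alone they were -1.94 to -1.27 and -2.85 to -1.84 points. V minus IV turned to -0.15 (50% overlap and midpoints), -0.20 (replicate 2 rows), -2.04 (neighbours once) and -0.58 to -0.36 points (1 replicate). V minus II in the centre turned to -0.48 (50% overlap), -0.070 (midpoints), -0.38 (upper 50%), -0.14 (equal length) and -2.18 points (neighbours once), and was 0.93 to 2.67 points with 1 replicate, past the threshold without replicate 2. Counting neighbours once gave 3.76 points against III and 3.22 against IV. These differences were smaller than the 6.92 and 5.31 points of the main setting, and fewer regions were counted. The causes of these changes were not tested. Without read counts, the effect of depth on low-ranked regions could not be bounded.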
